A study of Mus musculus with 4 samples.

Results

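The genes described here encode the glucose transporter and 9 enzymes of glycolysis and lactate formation, Slc2a1, Hk2, Aldoa, Tpi1, Gapdh, Pgk1, Pgam1, Eno1, Pkm and Ldha. They were chosen by symbol, and these 10 were found among the 47069 mouse gene IDs counted. They were measured in 2 libraries of RNA from tumour-derived exosomes and 2 libraries of RNA from primary tumour, to ask which gene signatures differ between a tumour and the vesicles it releases. Both groups come from tumours of Lewis lung carcinoma, an established mouse lung carcinoma cell line, grown under the skin of C57BL/6 mice and taken 3 weeks after inoculation. For the exosome group, tumour pieces were held for 12 h in medium without serum, the medium was cleared by centrifugation and a 0.2 µm filter, and the vesicles were collected with a precipitation reagent. No step selected vesicles by their cell of origin, and the tumour libraries hold RNA of carcinoma and host cells together. The labels do not say whether replicates come from separate animals or whether tumours were pooled, so the tests take as error the spread between libraries, which may be technical.

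Glycolysis splits glucose into pyruvate in the cytosol. An uptake and preparatory phase spends ATP to trap and cleave the sugar, and a payoff phase then regains ATP and reduces NAD. Many tumours take up much glucose and turn pyruvate into lactate even where oxygen is present, and several of the genes are induced by the hypoxia factor HIF-1. Their messenger RNAs are abundant in most proliferating cells, and Gapdh, Pgk1 and Aldoa are often used as reference transcripts. In bulk RNA, fewer cells of a type and less RNA per cell cannot be told apart.

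The exosome libraries held 305751 and 217201 gene counts and the tumour libraries 14543691 and 10849811. Protein-coding genes made up 2.83% and 3.29% of exosome counts and 1.55% and 1.58% of tumour counts, the rest lying in noncoding genes, pseudogenes and IDs without a biotype. A single count in an exosome library is worth 3.27 or 4.60 counts per 1000000 gene counts (CPM), and in a tumour library 0.0688 or 0.0922 CPM. Exosome values of single genes therefore rest on few counts. Of the carcinoma markers, Krt18 had 1 and 1 exosome counts and 11 and 4 tumour counts, Krt8 had 2 and 0 tumour counts alone, and Epcam, Cdh1 and Krt19 had no count in any library. All intervals are at the 95% level and, like the floor of 3 counts per library used where a gene had no count, cover counting error only, since amplified reads carry no molecular identifiers.

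Summed over the 10 genes, there were 51 and 48 counts in the exosome libraries and 581 and 384 in the tumour libraries. As a share of all gene counts this was 0.0167% and 0.0221% in exosomes (exact Clopper-Pearson intervals 0.0124% to 0.0219% and 0.0163% to 0.0293%), against 0.00400% and 0.00354% in tumour. The exosome mean of 0.0194% ± 0.00383 was 5.15 times the tumour mean of 0.00377% ± 0.000322 (SD, n = 2 each), and pooled counts gave 4.98 times with an exact interval of 4.01 to 6.13. Both exosome libraries lay above both tumour libraries.

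The direction of the sum turned with the denominator. Tumour libraries hold many counts in protein-coding genes that overlap annotated small RNA genes and in Snrpb, a splicing protein gene, and without these the protein-coding total was 7145 and 6062 counts in exosomes and 50046 and 35287 in tumour. Against that total the 10 genes came to 0.714% and 0.792% in exosomes and 1.16% and 1.09% in tumour. The means were 0.753% ± 0.0552 in exosomes and 1.12% ± 0.0514 in tumour, a ratio of 0.669, and pooled counts gave 0.663 with an exact interval of 0.533 to 0.816. Glycolysis messenger RNA thus took a larger part of all exosome counts than of all tumour counts. Set against the remaining protein-coding counts, its sum was smaller in exosomes than in tumour. Slc2a1 counts are in that sum but not in that total, as the gene overlaps a small RNA gene. Against every protein-coding count the ratio was 2.62. No p-value is given for the sum, and an exact permutation test of 2 libraries against 2 cannot give a two-sided p under 0.33.

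**Figure D1:**
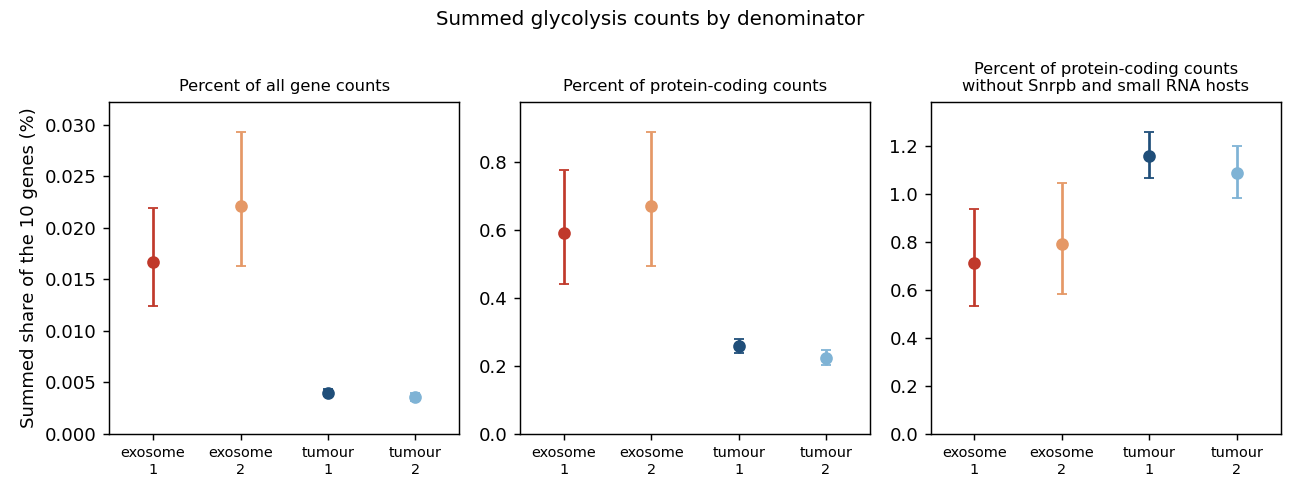
Summed counts of the 10 glycolysis genes as a percent of 3 denominators, with 1 point per library, exosome libraries on the left of each panel and tumour libraries on the right, and bars for exact 95% Clopper-Pearson intervals. Exosome libraries lie above tumour libraries in the first 2 panels (0.0167% and 0.0221% against 0.00400% and 0.00354% of all gene counts) and below them in the last (0.714% and 0.792% against 1.16% and 1.09%).

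For single genes, counts of the whole table were fitted with edgeR's quasi-likelihood test after TMM scaling, which sets the typical tested gene to no difference, and p-values were adjusted over all 1442 genes tested. Differences are log2, exosomes minus tumour. Of the 10 genes, 0 were called higher and 2 lower at an adjusted p of 0.05, namely Ldha and Pgam1, while of all genes tested 16.0% were called higher and 22.1% lower, and of protein-coding genes 5.35% and 10.5%. With library totals in place of TMM, 8 were called higher (Slc2a1, Hk2, Aldoa, Tpi1, Gapdh, Pgk1, Pkm and Ldha) and 0 lower, against 63.8% of all genes and 69.2% of protein-coding genes called higher, and 11.5% and 1.78% called lower. That change moved the median of all tested genes by 2.74, and the median of the 10 genes was −0.23 with TMM and 2.54 with library totals, beside 0.018 and 2.75 over all genes. All 10 passed the low-count filter, Hk2 and Pgk1 only through the exosome libraries and Pgam1 only through the tumour libraries, so those 3 values are tied to how they were admitted.

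**Figure D2:**
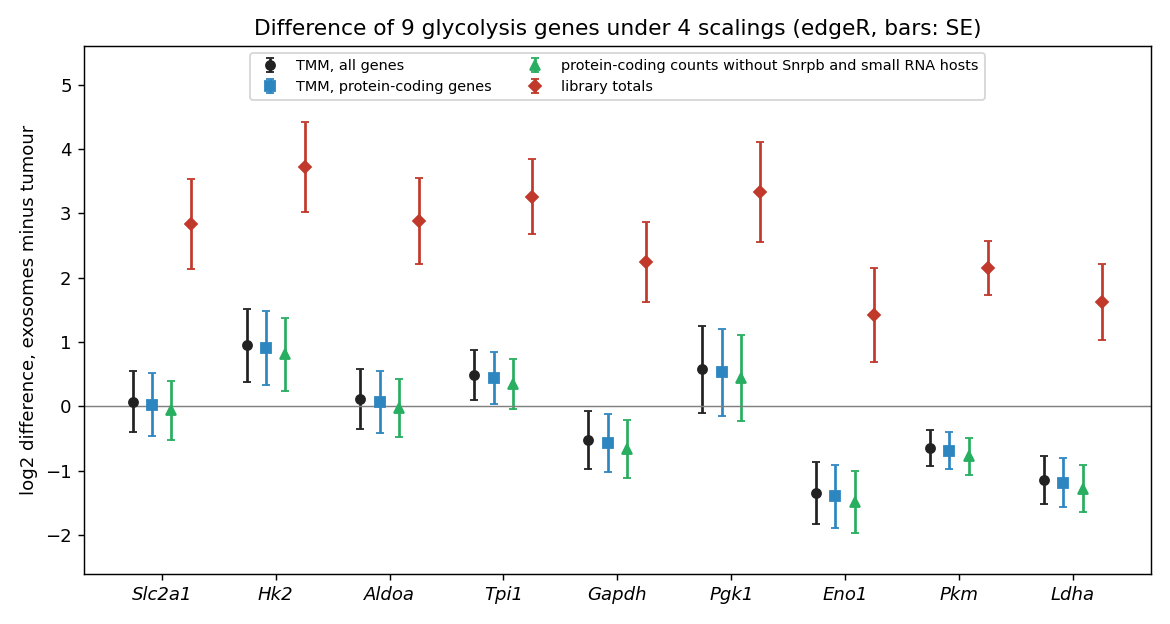
Log2 difference (exosomes minus tumour) of 9 glycolysis genes by edgeR under 4 scalings, with bars for the SE; Pgam1, which had no exosome count, is left out. The 3 scalings that centre on protein-coding or typical genes lie close together, from −1.49 for Eno1 to 0.95 for Hk2, and library totals place the same genes between 1.42 for Eno1 and 3.72 for Hk2.

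Slc2a1, the GLUT1 transporter that carries glucose across the plasma membrane (chromosome 4, 119108711 to 119137983, GRCm38), had 5 and 3 counts in exosomes and 32 and 22 in tumour. In CPM this was 16.4 and 13.8 in exosomes against 2.20 and 2.03 in tumour. After TMM scaling the groups overlapped, with 6.85 and 4.74 against 5.63 and 5.51 scaled CPM, and the difference was 0.07 (SE 0.47, edgeR adjusted p = 0.954). The microRNA locus Mir1957a lies in an intron of this gene and had no count.

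Hk2, the hexokinase that phosphorylates glucose and is the inducible isoform of many tumours (chromosome 6, 82725025 to 82774454), had 3 and 7 exosome counts and 24 and 13 tumour counts. Its 9.81 and 32.2 CPM in exosomes lay above 1.65 and 1.20 CPM in tumour. The difference after TMM scaling was 0.95 (SE 0.57, edgeR adjusted p = 0.266), and it was 0.10 without exosome replicate 2, which held 7 of the 10 exosome counts.

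Aldoa, the aldolase that cleaves fructose bisphosphate (chromosome 7, 126795234 to 126800751), had 6 and 3 exosome counts and 34 and 25 tumour counts, or 19.6 and 13.8 CPM against 2.34 and 2.30 CPM. Its TMM difference was 0.11 (SE 0.46, edgeR adjusted p = 0.922). Tpi1, triosephosphate isomerase, which interconverts the products of aldolase (chromosome 6, 124810586 to 124814296), had 7 and 6 exosome counts and 41 and 25 tumour counts. It was the 1 gene of the 10 whose exosome values lay above both tumour values on the TMM scale, 9.59 and 9.48 scaled CPM against 7.22 and 6.26, a pattern that 28.7% of all tested genes showed. The difference of 0.49 (SE 0.39) did not pass (edgeR adjusted p = 0.459).

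Gapdh, the dehydrogenase that opens the payoff phase (chromosome 6, 125161715 to 125166467), had 6 and 4 exosome counts and 70 and 34 tumour counts. On the TMM scale 8.22 and 6.32 CPM in exosomes lay just under 12.3 and 8.51 CPM in tumour, a difference of −0.53 (SE 0.45, edgeR adjusted p = 0.458). The count table holds 170 annotated pseudogenes at least 90% identical to Gapdh, with 21 and 6 exosome counts and 79 and 40 tumour counts between them. Added to Gapdh, they turned the difference to 0.25 (SE 0.40, edgeR adjusted p = 0.720), so the sign for Gapdh turned with whether these copies were counted with it. How reads with several matches were placed is not given, and its part in this was not tested.

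Pgk1, phosphoglycerate kinase, the first ATP-forming step (chromosome X, 106187100 to 106203699), differed most between exosome replicates in relative terms, with 6 and 1 counts there and 18 and 15 in tumour. The TMM difference was 0.57 (SE 0.67, edgeR adjusted p = 0.610), and it was −1.10 without exosome replicate 1. Its copies Pgk1-rs7 and Gm5537 had 1 and 0 exosome counts and 15 and 8 tumour counts, and with them the difference was 0.014 (SE 0.63, edgeR adjusted p = 0.991).

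Pgam1, phosphoglycerate mutase, had no count in either exosome library and 28 and 26 counts in tumour (chromosome 19, 41911923 to 41918660). It was called lower with TMM scaling (edgeR adjusted p = 0.0187), at least 1.29-fold when each exosome library is set to the floor of 3 counts. By library totals, 3 counts would be 9.81 and 13.8 CPM in exosomes, above the 1.93 and 2.40 CPM of tumour, so no fold can be given and the gene was not called (edgeR adjusted p = 0.163). The processed pseudogene Pgam1-ps2 is identical to the Pgam1 coding sequence in all 765 bases, and it held 1 and 2 exosome counts and 4 and 1 tumour counts. The opening of both coding sequences is shown because a read from it cannot be assigned to either locus, in lower case as no base differs (chr19:41912048-41912107, plus strand, and chr7:27470476-27470535, minus strand, GRCm38).
Pgam1: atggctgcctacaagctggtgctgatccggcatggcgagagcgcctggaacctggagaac
Pgam1-ps2: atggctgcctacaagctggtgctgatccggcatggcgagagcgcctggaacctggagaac
With its pseudogene copies, Pgam1 had 1 and 2 counts in exosomes and 33 and 28 in tumour, and the difference of −1.51 (SE 0.63) was no longer called (edgeR adjusted p = 0.113).

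Eno1, the enolase that forms phosphoenolpyruvate (chromosome 4, 150236721 to 150248879), had 2 and 4 exosome counts and 67 and 43 tumour counts. By library totals its exosome values of 6.54 and 18.4 CPM were above 4.61 and 3.96 CPM in tumour. On the TMM scale they were below, 2.74 and 6.32 against 11.8 and 10.8 scaled CPM, with a difference of −1.35 (SE 0.48) that did not pass (edgeR adjusted p = 0.0639). It passed with median-of-ratios scaling (−1.46, edgeR adjusted p = 0.0449), the reduced protein-coding total (−1.49, edgeR adjusted p = 0.0435) and no filter (−2.52, edgeR adjusted p = 0.000103). It did not pass with DESeq2 (−1.46, adjusted p = 0.1125) or TMM over protein-coding genes (−1.40, edgeR adjusted p = 0.0532). Nor did it pass with at least 10 counts in at least 2 libraries required (−0.91, edgeR adjusted p = 0.212). Adding its pseudogene copies gave −1.22 (edgeR adjusted p = 0.0568), which did not pass either. The difference was −2.05 without exosome replicate 2 and −0.83 without exosome replicate 1. The pseudogene Gm4735 differs from the Eno1 coding sequence at 5 of 1302 bases and had 1 and 1 exosome counts and 12 and 10 tumour counts. A stretch around 1 of the differences, marked by the capital, shows how little sequence separates the loci (chr4:150246598-150246657 and chr2:80837836-80837895, both plus strand, GRCm38).
Eno1: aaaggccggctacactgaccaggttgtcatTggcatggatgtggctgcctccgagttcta
Gm4735: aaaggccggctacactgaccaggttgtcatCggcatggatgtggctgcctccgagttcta

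Pkm, pyruvate kinase, the last ATP-forming step, whose M2 splice form marks many tumours (chromosome 9, 59656368 to 59679375), had the most counts of the family in every library when pseudogene copies are left out. With copies added, Gapdh had 27 counts and Pkm 16 in exosome replicate 1. Pkm alone had 11 and 15 in exosomes and 167 and 122 in tumour. In CPM it reached 36.0 and 69.1 in exosomes against 11.5 and 11.2 in tumour. On the TMM scale 15.1 and 23.7 in exosomes lay under 29.4 and 30.5 in tumour, a difference of −0.64 (SE 0.28, edgeR adjusted p = 0.120), which passed without exosome replicate 2 (edgeR adjusted p = 0.0329). Gene counts do not separate the splice forms.

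Ldha, the lactate dehydrogenase subunit that turns pyruvate into lactate (chromosome 7, 46841475 to 46855627), had 5 and 5 counts in exosomes and 100 and 59 in tumour. On the TMM scale this was 6.85 and 7.90 CPM in exosomes and 17.6 and 14.8 CPM in tumour, and Ldha fell by 1.14 (SE 0.37, edgeR adjusted p = 0.0439). The call did not hold without any 1 of the 4 libraries (edgeR adjusted p = 0.0649 to 0.306, lower in exosomes each time), with DESeq2 (−1.25, adjusted p = 0.0850) or with at least 10 counts in at least 2 libraries required (−0.70, edgeR adjusted p = 0.216), and with library totals Ldha was called higher (1.63, SE 0.59, edgeR adjusted p = 0.0127). A retained-intron transcript of Ldha also holds a stretch 90.1% to 96.2% identical to 57 loci annotated as microRNA, which had 21 and 9 exosome counts and 5 and 2 tumour counts in all.

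On the TMM scale, exosome values lay below both tumour values for Gapdh, Pgam1, Eno1, Pkm and Ldha, which are 5 of the 10 genes, beside 38.1% of all tested genes, and the groups overlapped for Slc2a1, Hk2, Aldoa and Pgk1. By library totals 9 of 10 lay above, beside 77.2% of all tested genes.

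**Figure D3:**
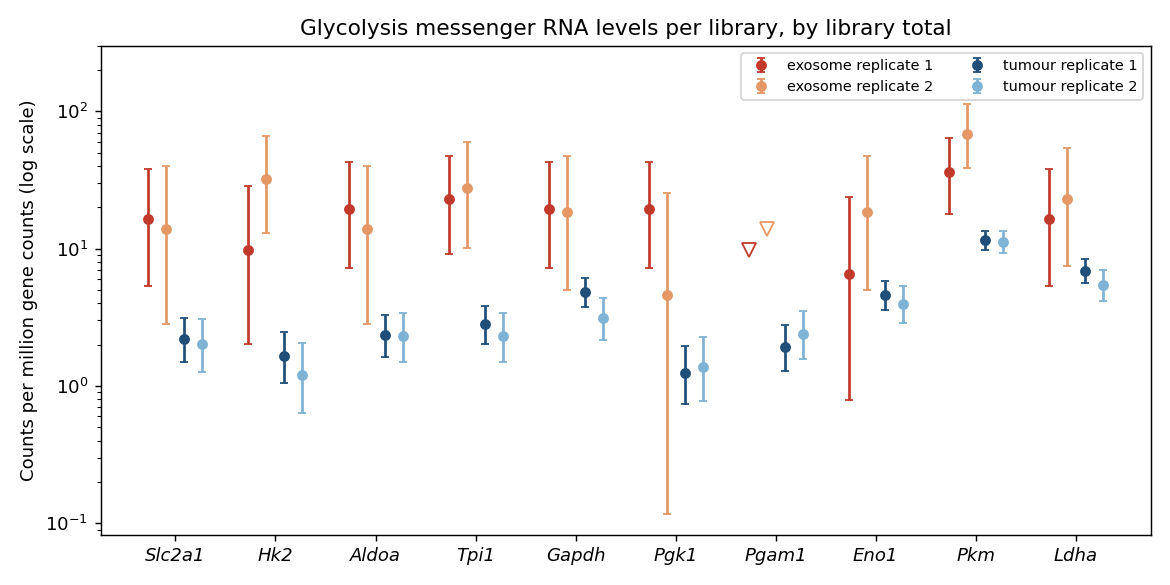
CPM (log axis) of each glycolysis gene in the 2 exosome and 2 tumour libraries, with exact 95% Poisson intervals; open triangles mark the level of 3 counts where a library had none. Points of 9 genes are higher in both exosome libraries, Pkm being highest at 36.0 and 69.1 against 11.5 and 11.2 CPM, and the exosome intervals are far wider than those of tumour.

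The make-up of the family does not depend on how libraries are scaled. With pseudogene copies left out, Pkm led with 21.6% and 31.2% of the summed glycolysis counts in exosomes and 28.7% and 31.8% in tumour, and the groups overlapped. Ldha took 9.80% and 10.4% in exosomes against 17.2% and 15.4% in tumour, and Eno1 3.92% and 8.33% against 11.5% and 11.2%. Tpi1 took 13.7% and 12.5% against 7.06% and 6.51%, and Hk2 5.88% and 14.6% against 4.13% and 3.39%. Exosome shares lay above both tumour shares for Slc2a1, Hk2 and Tpi1 and below both for Pgam1, Eno1 and Ldha. The exact intervals of every exosome library overlapped those of both tumour libraries for every gene but Hk2, where exosome replicate 2 (6.07% to 27.8%) lay above tumour replicate 2 (1.81% to 5.72%). For Pgam1 the exact upper limits were 6.98% and 7.40% of the family in the exosome libraries, against shares of 4.82% and 6.77% in tumour. Pooled over libraries, the interval was 0% to 3.66% in exosomes and 4.23% to 7.24% in tumour, and these do not overlap. Pooling leaves out the spread between libraries, and the intervals of single libraries did overlap. Counts placed on its pseudogene copies, 1 and 2 in exosomes and 5 and 2 in tumour, are not in these shares.

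Grouped by place in the pathway, a grouping made after the counts were seen and not tested, the transporter and preparatory genes Slc2a1, Hk2, Aldoa and Tpi1 held 21 of 51 and 19 of 48 family counts in exosomes and 131 of 581 and 85 of 384 in tumour. These are 41.2% and 39.6% in exosomes (exact intervals 27.6% to 55.8% and 25.8% to 54.7%) against 22.5% and 22.1% in tumour (19.2% to 26.2% and 18.1% to 26.6%). The payoff genes and Ldha held the other 58.8% and 60.4% in exosomes and 77.5% and 77.9% in tumour. The counted pseudogene copies with any count all belong to payoff genes and Ldha, and with them the preparatory share was 26.2% and 32.8% in exosomes against 18.2% and 18.6% in tumour. Both exosome libraries stayed above the tumour libraries, with overlapping intervals of 17.0% to 37.3% and 21.0% to 46.3% against 15.5% to 21.2% and 15.1% to 22.5%.

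**Figure D4:**
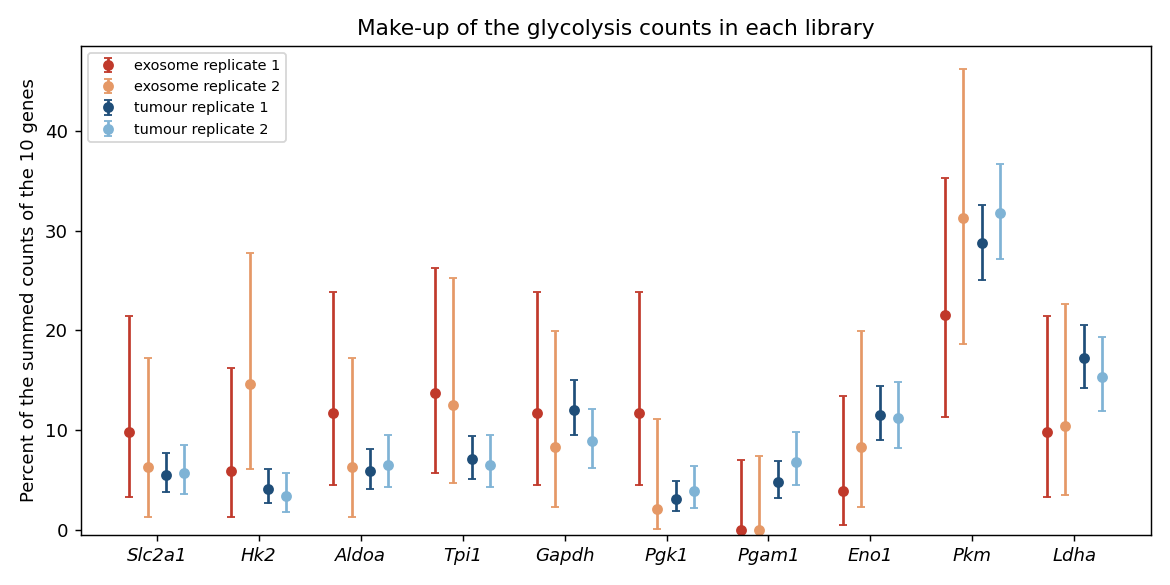
Percent of the summed counts of the 10 genes that each gene held in each library, with exact 95% Clopper-Pearson intervals, exosome libraries left of tumour libraries. Pkm is the largest part in all 4 libraries (21.6% and 31.2% in exosomes, 28.7% and 31.8% in tumour), Ldha and Eno1 are smaller parts in exosomes, and Tpi1 and Hk2 larger ones.

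Levels can be compared between genes only per length. The lengths behind the deposited FPKM exceed the whole span of the gene for Aldoa (5910 against 5518 bases), Tpi1 (3948 against 3711) and Gapdh (8626 against 4753), so CPM were instead divided by the length of the principal coding transcript in GENCODE M21. In exosomes Pkm came first with 14.8 and 28.4 CPM per kilobase, followed by Tpi1 with 14.3 and 17.2 and Gapdh with 13.8 and 13.0. Ldha (9.26 and 13.0), Aldoa (13.0 and 9.14), Pgk1 (10.7 and 2.52), Eno1 (3.23 and 9.08), Slc2a1 (5.02 and 4.24) and Hk2 (1.78 and 5.85) followed. Each of these neighbours overlapped the next except Tpi1 and Gapdh, which rest on 13 and 10 exosome counts. With pseudogene copies added, Gapdh came first in exosomes, with 62.2 and 32.4 CPM per kilobase against 21.5 and 30.3 for Pkm. In tumour with copies added, Gapdh lay above Ldha in both libraries. It lay above Pkm in tumour replicate 1 but below it in tumour replicate 2. The order thus turned with whether the copies were counted. In tumour with copies left out, the order was Pkm (4.72 and 4.62), Ldha (3.89 and 3.08), Gapdh (3.39 and 2.21), Eno1 (2.27 and 1.95), Tpi1 (1.75 and 1.43), Aldoa (1.55 and 1.52), Pgam1 (1.08 and 1.35), Pgk1 (0.678 and 0.758), Slc2a1 (0.675 and 0.622) and Hk2 (0.299 and 0.217). There the replicates of Ldha overlapped those of Gapdh, those of Gapdh those of Eno1, and those of Tpi1 those of Aldoa, and the other neighbours did not overlap. Hk2 was last in both groups by mean among the genes detected, and Tpi1 came right after Pkm in exosomes and after Ldha, Gapdh and Eno1 in tumour.

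Of the other glycolysis isoforms, 10 of 19 had a count and 1, Pfkp, was tested. Pfkp, a phosphofructokinase, had 1 and 2 exosome counts and 28 and 17 tumour counts, a difference of −1.06 (SE 0.67, edgeR adjusted p = 0.300). Named by mean CPM over the 4 libraries, Hk1, another hexokinase, had 0 and 3 exosome counts and 21 and 11 tumour counts, Gpi1, the glucose phosphate isomerase, 0 and 4 against 11 and 9, and Slc2a3, another glucose transporter, 1 and 3 against 5 and 2. Their place rests on the 3 or 4 counts in exosome replicate 2. In tumour Pfkp had more counts than Hk1. Pfkl, a further phosphofructokinase with no exosome count and 18 and 10 tumour counts, had more than Gpi1 and Slc2a3 there. Hk3, a further hexokinase, had 2 and 2 exosome counts and 2 and 1 tumour counts.

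Of 13 regulators and lactate transport genes 2 were tested and 0 called with TMM scaling, beside 16.0% of all tested genes called higher and 22.1% lower. Over all 6 related lists 1 gene was called higher and 1 lower with TMM scaling. With library totals 5 were called higher and 0 lower, beside 63.8% and 11.5% of all tested genes. With no filter 0 were called higher and 5 lower, beside 215 and 610 of all 14421 genes with a count. Only 1442 of those passed the filter of the main test, so these shares are not like the ones above. Bsg, the chaperone of the lactate transporters, had 7 and 2 exosome counts and 21 and 6 tumour counts, a difference of 1.25 (SE 0.73, edgeR adjusted p = 0.252) that passed without tumour replicate 1 (2.09, edgeR adjusted p = 0.0145) and with library totals (4.01, edgeR adjusted p = 9.31e-06). Bsg was under the filter level in both tumour libraries and was admitted only through the exosome libraries. Pfkfb3, which makes the activator of phosphofructokinase, had 1 and 1 counts against 14 and 3, and the untested transporter Slc16a1 had 0 and 1 against 10 and 10. Of 17 other hypoxia genes 4 were tested and 0 called with TMM scaling. With library totals Mif (2.62, edgeR adjusted p = 0.0110) and Hif1a (2.64, edgeR adjusted p = 0.0234) were called higher, beside 63.8% of all tested genes. Both were under the filter level in both tumour libraries and were admitted only through the exosome libraries. With no filter Egln3 was called lower (−2.55, edgeR adjusted p = 0.00982). Egln3, the HIF prolyl hydroxylase, had 1 and 2 exosome counts and 34 and 23 tumour counts (−1.40, SE 0.63, edgeR adjusted p = 0.135). Ero1l, an oxidase of the endoplasmic reticulum, had 0 and 3 against 32 and 10, and the cytokine gene Mif 3 and 1 against 16 and 15. Vegfa had no exosome count and 7 and 7 tumour counts. The direction of the summed hypoxia list turned with the denominator too, with 39.2 and 46.0 CPM in exosomes and 13.0 and 10.7 CPM in tumour, but 0.168% and 0.165% of the reduced protein-coding total in exosomes and 0.378% and 0.329% in tumour.

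The pentose phosphate pathway, which branches from glycolysis, had 1 of 7 genes tested, and it was called higher, beside 16.0% of all tested genes. Tkt, the transketolase that links both pathways, had 6 and 4 exosome counts and 8 and 6 tumour counts and rose by 2.31 (SE 0.48, edgeR adjusted p = 0.00592). It was admitted only through the exosome libraries, and the call was lost without exosome replicate 1 (edgeR adjusted p = 0.107) and with no filter (1.14, edgeR adjusted p = 0.560). Of 22 genes of pyruvate dehydrogenase and the tricarboxylic acid cycle, 4 were tested. Beside 16.0% of all tested genes called higher and 22.1% lower, 0 of these were called higher and 1 lower. That gene, Idh2, the mitochondrial isocitrate dehydrogenase, had no exosome count and 31 and 24 tumour counts, at least 1.30-fold lower against the exosome floor (edgeR adjusted p = 0.0141), and was not called with library totals (edgeR adjusted p = 0.158). Like Pgam1, it was admitted only through the tumour libraries. Gluconeogenesis genes were nearly absent, with 1 and 2 exosome counts and 1 and 3 tumour counts over 7 genes, in exosomes 1 of Fbp1, 1 of G6pc3 and 1 of Pck2, and none was tested.

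**Figure D5:**
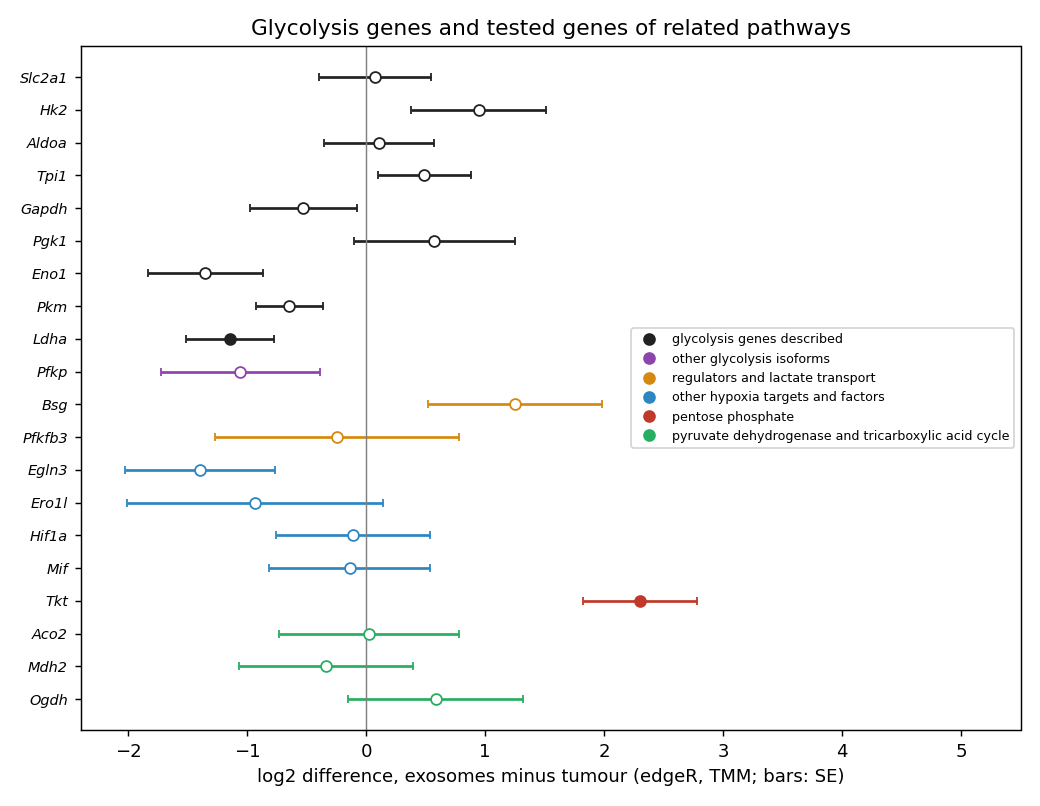
Log2 difference (exosomes minus tumour, edgeR with TMM scaling, bars for the SE) of 9 glycolysis genes and of the tested genes of 5 related lists; filled points passed an adjusted p of 0.05, and Pgam1 and Idh2, with no exosome count, are left out. Ldha at −1.14 and Tkt at 2.31 are the filled points.

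The letters ACGTG are a form of the core that HIF-1 binds, and no other form was looked for. The search covered both strands in the 250 bases before each annotated start (RefSeq, GRCm38.p6). All 10 genes had a window by symbol. Of these, 7 had the letters in at least 1 window, and so did 18.5% of all genes with a window. Genes with several starts have more windows, and by window 8 of 16 held the letters, beside 16.6% of all windows. The exceptions were Tpi1, Gapdh and Eno1. Ldha, 1 of the 2 genes called lower with TMM scaling, is shown as the window with the most matches (chr7:46845554-46845803, plus strand). It holds the letters 2 times on the printed strand and 3 times on the other, where they read CACGT, and capitals mark all of them, including overlaps.
Ldha: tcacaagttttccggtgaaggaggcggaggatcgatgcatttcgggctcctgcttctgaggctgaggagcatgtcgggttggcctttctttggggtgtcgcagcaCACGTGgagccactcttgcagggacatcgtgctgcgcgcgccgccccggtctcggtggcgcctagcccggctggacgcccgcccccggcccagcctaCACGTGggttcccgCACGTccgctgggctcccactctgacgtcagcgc
A match is a description of the letters, not a binding site.

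By library totals, on which 77.2% of all tested genes lay above in exosomes, the marker lists of other cell types were higher in exosomes as well. The 5 erythroid genes summed to 268 and 483 CPM in exosomes and 114 and 81.2 CPM in tumour, and of 4 tested all were called higher with library totals and 2, Hba-a1 and Hba-a2, lower with TMM scaling, beside 22.1% of all genes. The 5 neutrophil genes summed to 55.6 and 50.6 CPM against 4.95 and 2.12 CPM, with Retnlg and Csf3r at 0 in exosomes. The 8 macrophage genes came to 19.6 and 41.4 CPM against 5.43 and 5.35 CPM (Adgre1, Cd68 and C1qa at 0 in exosomes), the 6 fibroblast genes to 78.5 and 101 CPM against 10.0 and 7.83 CPM (Pdgfra at 0 in exosomes), and the 5 endothelial genes to 13.1 and 18.4 CPM against 1.03 and 0.737 CPM (Kdr and Emcn at 0 in exosomes). The 6 skeletal muscle genes came to 36.0 and 23.0 CPM against 0.825 and 0.184 CPM, with Ckm, Mylpf and Myh4 at 0 in all libraries. T and natural killer cell genes had 1 count in all. With TMM scaling no tested gene of the neutrophil, macrophage, fibroblast, endothelial or muscle lists was called. Of the reduced protein-coding total, erythroid genes made up 1.15% and 1.73% in exosomes and 3.32% and 2.50% in tumour, and macrophage genes 0.0840% and 0.148% against 0.158% and 0.164%, so both sums turned with the denominator. The neutrophil sum stayed higher in exosomes, at 0.238% and 0.181% against 0.144% and 0.0652%, and so did the fibroblast, endothelial and muscle sums. The part of these cell types in the glycolysis values was not tested.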

How the data were processed

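Libraries were made from total RNA by adaptor ligation, amplification and gel size selection, per the labels' protocols. The deposited counts are whole numbers per gene without normalization, per the file headers and values. The deposited FPKM equal the count divided by a gene length and the library's own total within 0.0823%. The submitters' processing notes name TopHat2 2.0.9, Cufflinks 2.1.1, Cuffdiff and GRCm38. No source used here gives the counting tool, the gene annotation, the strand setting or how reads with several matches were treated. Without strand, genes that overlap a member cannot be told apart from it, and those counted had at most 1 count in any library.

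Symbols came from GENCODE M21. The test was edgeR 4.0.16's two-sided quasi-likelihood test under R 4.3.3, with TMM scaling and no covariate besides group, and p-values were adjusted by Benjamini-Hochberg over every gene tested. The filter was filterByExpr with minimum count 10 and minimum total 15, that is 2 libraries over 1.79 CPM. The SE is the absolute difference divided by the square root of F. The script was tested on simulated data. Copies are annotated pseudogenes at least 90% identical to a member's transcript over at least 50% of their length (blastn 2.17.0). Slc2a1 overlaps Mir1957a and is therefore not in the reduced protein-coding total, though its counts stay in the sum set against that total. Other scalings, filters, DESeq2 1.42.0, a replicate block and each library left out were tried as well. Genes were named by rule: every member, genes that overlap or share sequence with one, and of each of 6 pathway lists the genes called, or the 3 highest by mean CPM where none was called. Pfkp, Pfkl, Hk3, Hif1a, Vegfa and single genes of the 8 marker lists were named after their values were seen. The members and lists were chosen with earlier results of these data known.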

Additional observations from a re-analysis of the deposited data

How the results depend on the processing

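The 4 libraries limit every value, and exosome counts of single glycolysis genes run from 0 to 15. With library totals 920 genes were called higher and 166 lower, and with no filter 610 were called lower, against 230 and 318. The log2 ratio of the summed share was 2.36, and it was 1.39 against protein-coding counts, −0.58 against the reduced protein-coding total and −0.44 against TMM-scaled library sizes. Leaving out 1 library gave 206 to 233 genes higher, 309 to 324 lower and a log2 ratio of 2.15 to 2.55. Library totals turned Gapdh to 2.24, Eno1 to 1.42, Pkm to 2.15, Ldha to 1.63, Pfkfb3 to 2.49, Egln3 to 1.35, Ero1l to 1.82 and Mif to 2.62. With no filter, Slc2a1 turned to −1.10, Hk2 to −0.22, Aldoa to −1.06, Tpi1 to −0.68 and Pgk1 to −0.59. Gapdh (−1.70), Eno1 (−2.52) and Pkm (−1.82) were then called lower, as were Ldha and Pgam1 again. Of all 14421 genes with a count, 610 were called lower in that setting. All glycolysis genes with an exosome count moved down by a similar amount there, such as Hk2 from 0.95 to −0.22 and Ldha from −1.14 to −2.32. These turns and calls are therefore not separate results of single genes. Values near 0 turned for Slc2a1 with median-of-ratios scaling (−0.031), the reduced protein-coding total (−0.063) and DESeq2 (−0.038), and for Aldoa with the reduced total (−0.025) and DESeq2 (−0.0061). Mif turned to 0.31 with at least 10 counts in at least 2 libraries, and Gapdh to 0.25 with pseudogene copies, an alternative chosen after seeing the data. Leaving out 1 library also turned Slc2a1 (−0.23 to 0.28), Aldoa (−0.36 to 0.41), Pgk1 (−1.10 to 1.24), Ero1l (−6.89 to 0.16), Mif (−1.01 to 0.33) and Pfkfb3 (−0.73 to 0.91). The cause of these changes was not tested. The labels do not say whether replicate numbers pair the libraries. Deviations of same-numbered libraries had a correlation of −0.020, which cannot decide this, since exosome counts are few. With replicate numbers as a block 244 genes were called higher and 345 lower, and Ldha had −1.14 (edgeR adjusted p = 0.0719).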

Other observations

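Pseudogene copies held much of the counts of Gapdh-like sequence. With its copies Gapdh had 27 and 10 counts in exosomes and 149 and 74 in tumour, of which the copies held 21 and 6 in exosomes and 79 and 40 in tumour. For Ldha the copies held no count in exosomes and 5 and 1 in tumour. No test was made of these shares.

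Titin (Ttn), a sarcomere protein gene of the muscle list, had 8 and 3 exosome counts and 1 and 1 tumour counts, while Ckm, Mylpf and Myh4 had none. It was under the low-count filter and was not tested.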
